A study of Mus musculus with 23 samples.

Results

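DC3 cells were compared with DC2 cells in the spleen of untreated wild type Balb/C mice by RNA sequencing. By their labels the DC3 cells were CD8- CD172lo and the DC2 cells were CD8lo CD172hi, and both were sorted from the same 2 pools of mice, numbered 1 and 2. The comparison rests on 4 of the 23 libraries of the series, namely the DC3 and the DC2 library of each untreated pool. The other groups used here were the DC1a (CD8hi CD172-) and DC1b (CD8Int CD172+) cells of the same untreated pools, and the DC3 and DC2 cells of mice labelled TLI, a treatment that the labels do not expand. TLI DC3 cells were sequenced from pools 1, 2, 3 and 4 and TLI DC2 cells from pools 1, 3 and 4. All mice were wild type Balb/C and each library came from pooled mice. The age of these mice and the number in a pool are not given in the sources used here. The sort was described for DC1a, DC1b and DC2 cells, with stains for CD11c, MHC class II, B220, CD8 and CD172a after an enrichment for dendritic cells, and the gate for the DC3 cells is known here only from its label, which also calls them Pop4.

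Dendritic cells take up antigen and present it to T cells. Classical dendritic cells of the spleen fall into cDC1 cells, which depend on the transcription factors Irf8 and Batf3, take up dead cells and present their antigens on MHC class I, and cDC2 cells, which carry CD172a (the product of Sirpa), depend in part on Irf4 and Notch signals and are known for presentation to CD4+ T cells. Plasmacytoid dendritic cells, B cells, plasma cells, NK cells, monocytes and basophils can carry some of the stained surface proteins, and their marker genes were examined beside those of the classical subsets.

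The total count per library was between 19256447 and 25531376 in the 4 libraries, so that 3 counts, taken as the floor of detection, were worth 0.118 to 0.156 CPM (counts scaled to the same library total). These floors, the fold bounds drawn from them and the counting intervals given below cover counting error only, since amplified reads are not independent molecules. A gene at 0 counts may thus have been present in the cells. edgeR's quasi-likelihood test was fitted to all 8 untreated libraries together. In it, 169 of 16676 genes tested (1.01%) passed an adjusted p of 0.05 between DC3 and DC2 cells, with 80 higher in DC3 cells (0.48%) and 89 lower (0.534%). In all 169 the DC3 and the DC2 libraries did not overlap in CPM. Among all genes tested, 24.5% had both DC3 libraries above both DC2 libraries and 21.1% the reverse. By sign, 8337 of the 16676 genes had a positive log2 difference and 8194 a negative one. The counts of the gene lists below are to be read against these shares. The precision is low, with 2 libraries a subset and a biological coefficient of variation of 0.911. With the pool as a block in the fit, 69 genes were called, of which 64 were among the 169. A fit of the 4 libraries alone called 0 genes by edgeR, with 2152 genes at an unadjusted p under 0.05. The count also fell when a library was left out, to 41 without DC3 pool 1, 27 without DC3 pool 2, 23 without DC2 pool 1 and 41 without DC2 pool 2, with 16 of the 23 and 26 of the 41 higher in DC3 cells in the fits without a DC2 library. Of the 64 called genes described below, 7 were called in all 4 of these fits, namely Clec9a, Naaa, Gcsam, Gstp2, Mctp2, Ccl3 and Ms4a6d, 12 in some and 45 in none. DESeq2's test called 2063 genes. The labels number the pools without saying what else set them apart, so p-values measure only the spread between these pools, which may in part be technical. In the fit of 8 libraries that spread was estimated from the duplicates of all 4 subsets, DC1a and DC1b included. Across the genes tested, log2 CPM correlated at 0.803 between the DC3 duplicates and at 0.797 between the DC2 duplicates. The DC1a duplicates correlated at 0.888 and the DC1b duplicates at 0.816. Between DC3 and DC2 libraries the correlation was 0.719 to 0.723, between DC3 and DC1a libraries 0.787 to 0.794, and between DC3 and DC1b libraries 0.74 to 0.749. These are correlations over genes that share libraries, and are given as a description.

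**Figure D1:**
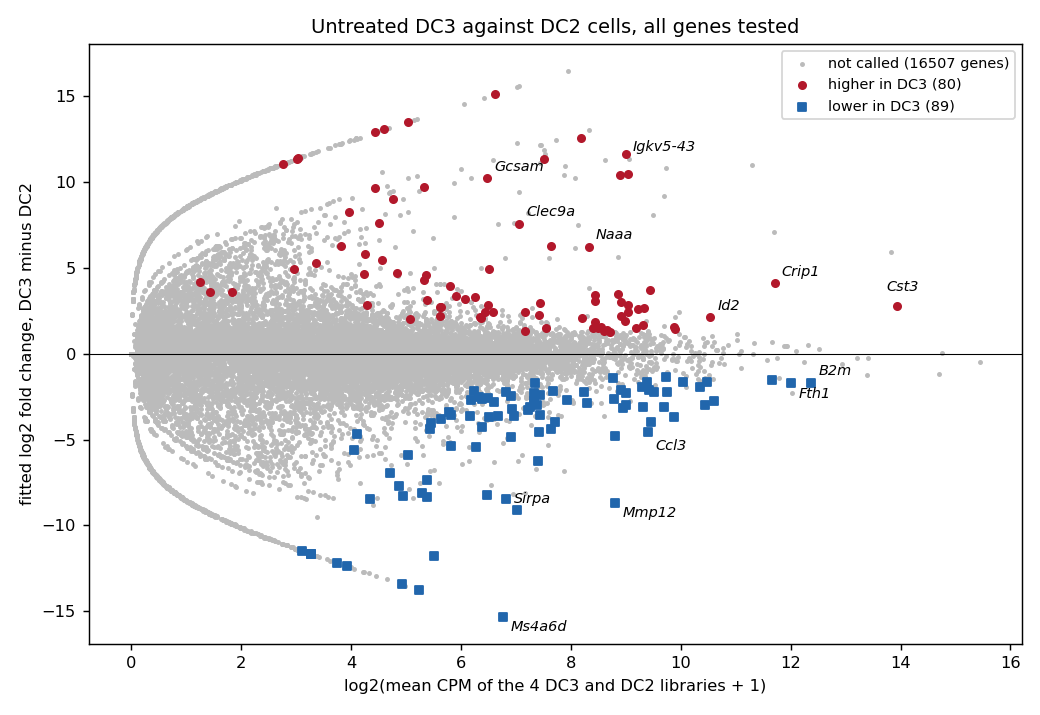
Fitted log2 fold change of DC3 minus DC2 cells (vertical axis) against log2 of the mean CPM of the 4 libraries plus 1 (horizontal axis) for the 16676 genes tested, with 80 genes called higher in DC3 cells as red circles, 89 called lower as blue squares and the others in grey. The called genes lie on both sides of 0, and the outer arcs are genes at 0 counts in both libraries of a subset, for which the fitted value is not a measure of size. Crip1 and Fth1 were labelled for their high level after their values were seen.

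The sort genes were examined first. Sirpa was at 1.09 and 0.235 CPM in the DC3 libraries of pools 1 and 2, and at 252 and 196 CPM in the DC2 libraries (log2 difference -8.45 ± 1.32 SE, adjusted p = 0.0495). The DC3 libraries held little RNA for the stained protein, far below the DC2 libraries. Sirpa is not counted as a finding because CD172 set the gates. Cd8a, which encodes the CD8 alpha chain, was at 0.410 and 41.6 CPM in the DC3 libraries and at 0.610 and 0.415 CPM in the DC2 libraries, against 468 and 450.3 CPM in DC1a cells. DC3 pool 2 stood apart from the other 3 libraries in Cd8a, and the difference was not called (adjusted p = 0.242). Itgax, which encodes CD11c, was at 142 and 221 CPM in DC3 cells and 479 and 532 CPM in DC2 cells (adjusted p = 0.0744). H2-Ab1 was at 8324 and 8947 CPM and 9727 and 10774 CPM, and Flt3, the receptor for the growth factor of dendritic cells, at 125 and 176 CPM and 183 and 121 CPM. None of the 10 markers shared by classical dendritic cells was called. All 10 had a negative log2 difference, and in 7 both DC2 libraries were above both DC3 libraries, against 21.1% of all genes. The median log2 difference of the 10 markers was -0.63, and that of all genes tested was 0.

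Genes of the cDC1 program were increased in DC3 as compared to DC2 cells. Of the 14 cDC1 markers tested, 6 were called higher (Clec9a, Naaa, Id2, Xcr1, Ppt1 and Tlr3) and 0 lower, against 0.48% and 0.534% of all genes. In 11 both DC3 libraries were above both DC2 libraries, against 24.5% of all genes. The median log2 difference of the list was 3.43. Bulk RNA cannot tell a larger number of cells with a gene from more RNA of the gene per cell, here and below. Clec9a encodes a receptor for dead cells. It was at 250.1 and 277 CPM in the DC3 libraries and 1.06 and 1.66 CPM in the DC2 libraries (log2 difference 7.57 ± 0.32, adjusted p = 0.00274). The DC3 libraries lay near the DC1b libraries (252 and 209 CPM) and below the DC1a libraries (581 and 543 CPM). The gene lies at chr6:129408862-129424763 on the plus strand of GRCm38, and Clec1b, which had at most 16.7 CPM in the 4 libraries, overlaps it on the same strand. Xcr1, the receptor for the chemokine XCL1, was at 170.1 and 145 CPM in DC3 cells and 17.3 and 25.8 CPM in DC2 cells (log2 difference 2.84 ± 0.32, adjusted p = 0.0217), against 475 and 401 CPM in DC1a cells. Naaa, a lysosomal lipid amidase, was at 715 and 547 CPM and 5.005 and 11.5 CPM (adjusted p = 0.0103). Tlr3, which senses double-stranded RNA, was at 105 and 48.4 CPM and 2.24 and 4.10 CPM (adjusted p = 0.0396). For each of these 4 genes the lower DC3 library lay far above the higher DC2 library. Id2, a repressor of E proteins that cDC1 cells need, was at 2549 and 2308 CPM and 604 and 472 CPM (adjusted p = 0.0103), with DC1a libraries at 2986 and 2579 CPM. Ppt1, a lysosomal thioesterase, was at 1039 and 1549 CPM and 57.7 and 137 CPM (adjusted p = 0.0286). With the pool as a block, Xcr1 and Tlr3 lost the call (adjusted p = 0.0541 and 0.0869) and the other 4 kept it.

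The start of Clec9a is shown because this gene had the lowest adjusted p of the comparison. The RefSeq sequence of the 250 bases before its start (chr6:129408612-129408861, plus strand, GRCm38.p6) is given 5′ to 3′, and the capitals mark its match to TATAAA or the reverse complement of TATAAA.
Clec9a: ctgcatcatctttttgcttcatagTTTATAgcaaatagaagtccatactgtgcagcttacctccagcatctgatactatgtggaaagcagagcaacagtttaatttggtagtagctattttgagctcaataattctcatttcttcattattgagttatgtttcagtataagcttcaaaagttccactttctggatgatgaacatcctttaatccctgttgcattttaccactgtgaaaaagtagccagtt
The match begins 226 bases before the start, and such a match was held by 12.4% of 32851 RefSeq promoters of the same length. No match to TGANTCA, the AP-1 motif, was found on either strand in these 250 bases, and 6.75% of the promoters held one. These are matches of letters and no measure of binding.

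The cDC1 transcription factors Irf8 and Batf3 did not pass the test. Irf8 was at 930.3 and 895 CPM in the DC3 libraries and at 1.63 and 35.4 CPM in the DC2 libraries (log2 difference 5.62 ± 1.28, adjusted p = 0.105). Both DC3 libraries exceeded both DC2 libraries, and the DC2 duplicates differed widely between themselves. The Irf8 level of DC3 cells was nearer to that of DC1b cells (1079 and 875 CPM) than to that of DC1a cells (574 and 473 CPM). Batf3 was at 287 and 288 CPM and 168 and 139 CPM (adjusted p = 0.158), so that the DC2 libraries also held this RNA. Cd24a was at 622 and 572 CPM and 2.24 and 82.7 CPM (adjusted p = 0.262), and Wdfy4, which acts in cross-presentation, at 634 and 311 CPM and 273 and 221 CPM (adjusted p = 0.317). DC2 pool 1 was the low library for Irf8 and Cd24a.

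**Figure D2:**
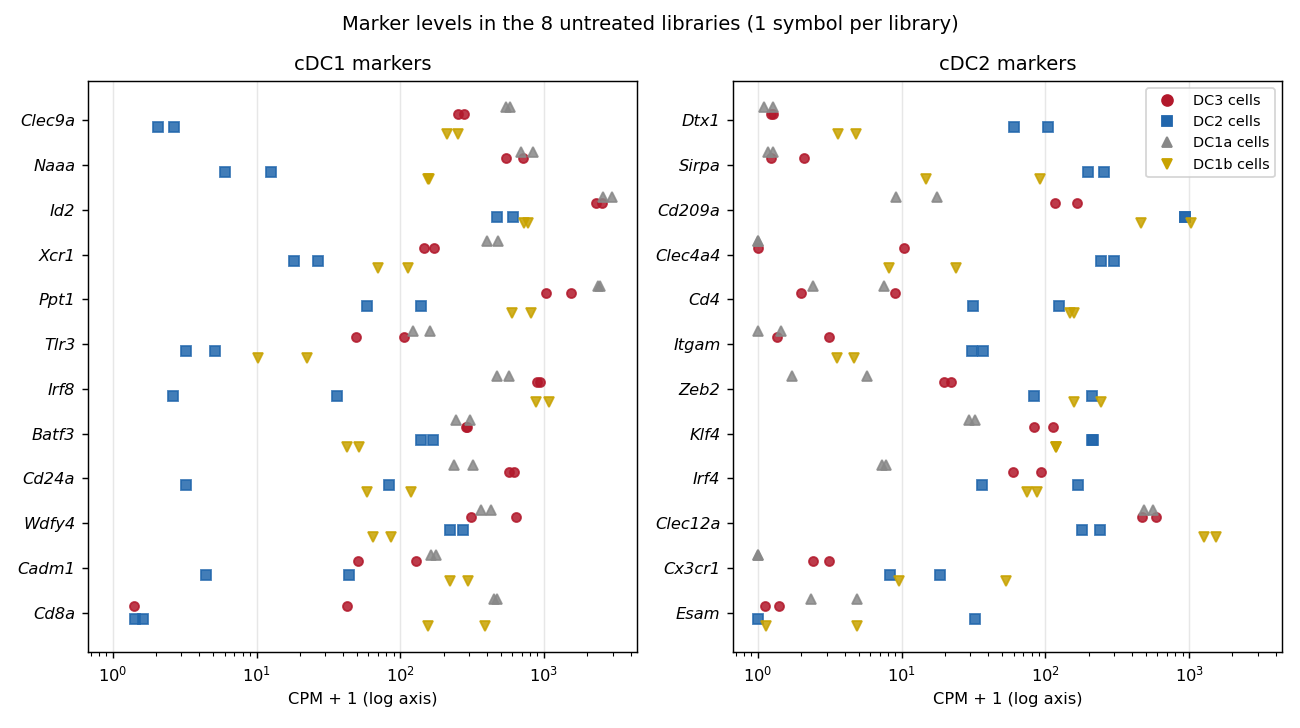
CPM plus 1 on a log axis for 12 cDC1 markers (left) and 12 cDC2 markers (right) in the 8 untreated libraries, with 1 symbol per library, red circles for DC3, blue squares for DC2, grey triangles for DC1a and yellow triangles for DC1b cells. The red circles of Clec9a, Naaa, Xcr1 and Tlr3 lie to the right of the blue squares, and those of Dtx1, Sirpa and Cd209a lie to the left.

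The cDC2 markers had the opposite direction in most members. Of 14 tested, 13 had a negative log2 difference, against 8194 of all 16676 genes. In 11 both DC2 libraries were above both DC3 libraries, against 21.1% of all genes. The median was -4.34, and 2 were called. One of the called genes was Sirpa, whose difference was set by the sort. The call that is left was Dtx1, a ubiquitin ligase induced by Notch, at 0.228 and 0.274 CPM in DC3 cells and 103 and 59.5 CPM in DC2 cells (log2 difference -8.35 ± 0.88, adjusted p = 0.0170). Dtx1 was also near the floor in DC1a cells (0.105 and 0.270 CPM). Of the 19 genes of the Notch pathway it was the 1 called, and the median of that list was 0.79, or 0.11 with genes at 0 in a subset set to their bound. Hes1, a Notch target, was at 8.51 and 4.35 CPM in DC3 cells and 81.1 and 68.4 CPM in DC2 cells (adjusted p = 0.0872). Cd209a was at 116 and 165 CPM in DC3 cells and 929.6 and 937 CPM in DC2 cells (adjusted p = 0.0730). Clec4a4, which encodes the DCIR2 antigen of splenic cDC2 cells, was at 0 and 9.28 CPM and 298 and 243 CPM (adjusted p = 0.275), and Cd4 at 7.96 and 0.979 CPM and 123 and 30.5 CPM (adjusted p = 0.201). The subsets did not overlap in these 4 genes, which did not pass the test. Irf4 was at 58.6 and 91.7 CPM and 35.0 and 167 CPM with overlap (adjusted p = 0.814). Clec12a was the marker of this list with the other direction, at 584 and 466 CPM in DC3 cells and 237 and 178 CPM in DC2 cells (adjusted p = 0.0728).

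The membrane-spanning genes Ms4a6d and Ms4a4a and the Fc receptor gene Fcgr4 were lower in DC3 cells. Ms4a6d, a member of the membrane-spanning 4A family, was at 0 and 0 CPM in the DC3 libraries and 187 and 245 CPM in the DC2 libraries, which is at least 1704-fold lower in DC3 cells against a floor of 3 counts per library (adjusted p = 0.0103). It lies at chr19:11586604-11604849 on the minus strand. Ms4a4a of the same family was at 0 and 0 CPM and 105 and 42.0 CPM, at least 578-fold lower (adjusted p = 0.0380). Of the 10 Ms4a genes tested these were the 2 called, and the median was -2.75. Fcgr4, an activating receptor for immunoglobulin G, had 1 count in the 2 DC3 libraries together and 99.1 and 78.5 CPM in the DC2 libraries, a ratio of counts of 4277 (95% counting interval 767 to 168993, adjusted p = 0.0170). Fcgr3 was at 1.14 and 1.92 CPM and 134 and 120.0 CPM (adjusted p = 0.0728), and Fcer1g, the signalling chain of these receptors, at 567 and 782 CPM and 2056 and 1653 CPM (adjusted p = 0.0728). Fcgr4 was the 1 called of 8 Fc receptors tested (median -1.10).

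The paired immunoglobulin-like receptors, which hold activating and inhibitory pairs, mostly had less RNA in DC3 than in DC2 cells. Of 25 tested, 24 had a negative log2 difference, and in 22 both DC2 libraries were above both DC3 libraries, against 21.1% of all genes. The median was -5.41, and 3 were called (Cd300lf, Cd300e and Sirpa). Sirpa was set by the sort, which leaves Cd300lf and Cd300e as calls of this list. Cd300lf was at 4.41 and 2.74 CPM in DC3 cells and 149 and 148 CPM in DC2 cells (adjusted p = 0.0103), and Cd300e at 0.364 and 0.196 CPM and 103 and 49.9 CPM (adjusted p = 0.0190). Lilra5 was at 0 and 0 CPM and 19.7 and 77.4 CPM (adjusted p = 0.0520). Several members of this list are near-identical copies of each other, and the counting could have split reads between them. Of 27 C-type lectin receptors, Clec9a was higher and Clec7a and Cd209c were lower, with a median of -2.77. Clec7a, the receptor for fungal beta-glucan, was at 11.6 and 16.1 CPM and 250.3 and 401 CPM (adjusted p = 0.0170). Cd209c was at 0 and 0 CPM and 17.4 and 17.2 CPM, at least 136-fold lower in DC3 cells (adjusted p = 0.0223).

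The monocyte list was divided. Of 16 markers, 2 were lower in DC3 cells (Cebpb and Nr4a1) and 1 was higher, and 12 had a negative log2 difference (median -1.70). Cebpb, a transcription factor of myeloid cells, was at 6.14 and 3.92 CPM and 83.0 and 78.4 CPM (adjusted p = 0.0279). Ccr2, the chemokine receptor that lets monocytes leave the marrow, went the other way, with 251 and 231 CPM in DC3 cells and 49.7 and 37.2 CPM in DC2 cells (log2 difference 2.43 ± 0.28, adjusted p = 0.0225). DC1a cells held 13.9 and 15.3 CPM of Ccr2, the lowest of the 4 subsets. Lyz2 was at 1367 and 2585 CPM and 5377 and 4789.9 CPM (adjusted p = 0.155), Csf1r at 16.7 and 2.04 CPM and 122 and 171 CPM (adjusted p = 0.208) and Ms4a4c at 116 and 105 CPM and 496 and 443 CPM (adjusted p = 0.0505). With the pool as a block Ms4a6d, Fcgr4, Cd300lf, Cd300e, Clec7a and Dtx1 kept their call, and Ms4a4a, Cd209c, Cebpb, Ccr2 and Sirpa lost it (adjusted p = 0.0992, 0.0699, 0.0723, 0.0541 and 0.101).

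The chemokine genes Ccl3 and Ccl4 were lower in DC3 than in DC2 cells. Ccl3, which draws T cells, NK cells and monocytes, was at 57.3 and 55.0 CPM in the DC3 libraries and 1324 and 1273 CPM in the DC2 libraries (log2 difference -4.57 ± 0.24, adjusted p = 0.00292). Ccl4 was at 395 and 432 CPM and 2592 and 2796 CPM (log2 difference -2.74 ± 0.28, adjusted p = 0.0165). The duplicates of both genes lay close together in each subset, and both kept their call with the block. They were the 2 called of 20 chemokine genes tested, of which 18 had a negative log2 difference, with a median of -2.22, or -1.29 with genes at 0 in a subset set to their bound. None of 20 cytokine genes was called by edgeR (median -1.11). Il1b, the most abundant of them, was at 1079 and 1824 CPM and 5648 and 8068 CPM (adjusted p = 0.0575), and it was called with the block (adjusted p = 0.0249).

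Immediate early genes are switched on within minutes by many stimuli, cell handling included, and several were lower in DC3 cells. Of 23 tested, 5 were called lower and 0 higher, 21 had a negative log2 difference, and the median was -1.11. Rgs1 was at 122 and 54.0 CPM and 1505 and 1143 CPM (adjusted p = 0.0170), and Egr2 at 1.82 and 3.49 CPM and 68.8 and 148 CPM (adjusted p = 0.0309). Egr1 was at 81.8 and 70.7 CPM and 314 and 349 CPM (adjusted p = 0.0469), and Ier3 at 24.4 and 13.2 CPM and 192 and 267 CPM (adjusted p = 0.0475). Nr4a1, an orphan nuclear receptor, was at 327 and 329.9 CPM and 849 and 1153 CPM (log2 difference -1.64 ± 0.21, adjusted p = 0.0322). Each of the 5 genes had DC2 libraries above the DC3 libraries, and of the 5 Rgs1 and Egr2 kept the call with the block. Egr1, Ier3 and Nr4a1 then had adjusted p = 0.0952, 0.0668 and 0.0524.

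The start of Nr4a1 is shown as that of an immediate early gene, with 250 bases before the RefSeq start (chr15:101266596-101266845, plus strand, GRCm38.p6). The capitals mark matches to TGCGTCA, a sequence like the cyclic AMP response element, on either strand.
Nr4a1: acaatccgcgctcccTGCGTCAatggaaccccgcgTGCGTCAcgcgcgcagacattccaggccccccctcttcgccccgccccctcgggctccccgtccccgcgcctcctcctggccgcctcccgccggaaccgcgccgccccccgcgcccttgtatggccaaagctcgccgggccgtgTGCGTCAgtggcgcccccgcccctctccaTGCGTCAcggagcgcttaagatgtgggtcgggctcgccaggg
The matches begin 235, 215, 71 and 42 bases before the start. This motif was chosen after the sequence had been read, and it was held by 1.75% of the 32851 promoters, Nr4a1 included. The 1 promoter with 4 or more matches was that of Nr4a1 itself, so this count gives no background rate.

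Among NF-kB genes, Rel was the 1 called of 20. It encodes the c-Rel subunit and was at 274 and 242 CPM in DC3 cells and 1073 and 1335 CPM in DC2 cells (adjusted p = 0.0226, 0.0524 with the block). The list had 16 genes with both DC2 libraries above both DC3 libraries, against 21.1% of all genes, and a median of -1.59. Nfkbia was at 628 and 674 CPM and 1167 and 1336 CPM (adjusted p = 0.0532), and Relb at 11.8 and 23.6 CPM and 153 and 110.0 CPM (adjusted p = 0.0532). Of 12 genes of mature migratory dendritic cells, 3 were lower and 0 higher, with a median of -1.87. Cd40 was at 8.01 and 5.52 CPM and 100.1 and 82.3 CPM (adjusted p = 0.0448) and Cd80 at 19.3 and 7.13 CPM and 183 and 149.9 CPM (adjusted p = 0.0483), and both act in costimulation of T cells. Ccr7, the receptor that guides dendritic cells to lymphatic tissue, was at 113 and 101 CPM and 490.0 and 501 CPM (adjusted p = 0.0482), with DC1a libraries at 417 and 416 CPM. Cd40 and Cd80 were also the called genes among 18 costimulatory and inhibitory ligands (median -1.29). Cd40, Cd80 and Ccr7 lost the call with the block (adjusted p = 0.0817, 0.0992 and 0.0902). Ccl22 and Fscn1 of the mature migratory list were low in all 4 libraries, unlike Ccr7. Ccl22 was at 18.1 and 0 CPM and 17.7 and 0 CPM, and Fscn1 at 2.96 and 2.55 CPM and 4.11 and 6.85 CPM. The whole list summed to 1203 and 1754 CPM in DC3 cells and 3289 and 4814 CPM in DC2 cells.

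**Figure D3:**
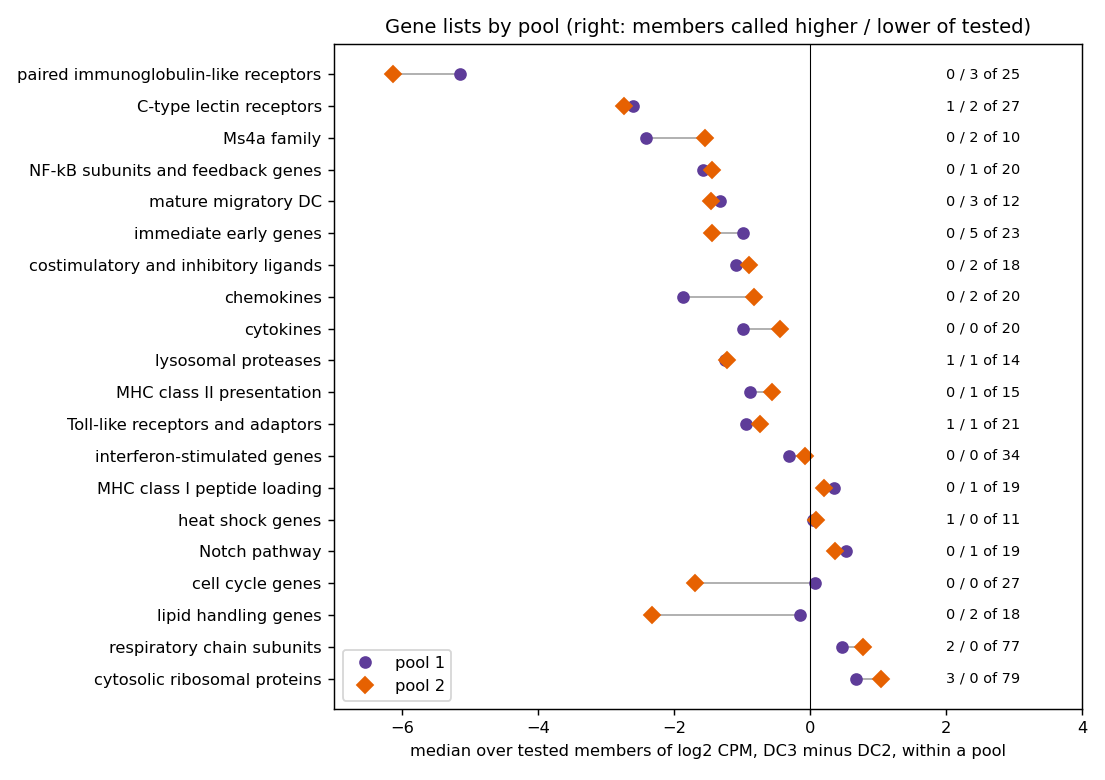
Median over the tested members of each of 20 gene lists of log2 CPM in DC3 minus DC2 cells, on the horizontal axis, within pool 1 (purple circles) and within pool 2 (orange diamonds), with the members called higher, called lower and tested at the right. The 13 lists from paired immunoglobulin-like receptors to interferon-stimulated genes lie below 0 in both pools, cell cycle genes lie on both sides, and ribosomal proteins and respiratory chain subunits lie above 0 in both.

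Genes of antigen presentation differed at a few members. H2-Oa, a chain of the H2-O protein that restrains peptide loading on MHC class II, was at 82.7 and 122 CPM in DC3 cells and 906 and 866 CPM in DC2 cells (log2 difference -3.14 ± 0.30, adjusted p = 0.0126). It was the 1 called of 15 genes of MHC class II presentation, of which 13 had a negative log2 difference (median -0.66). The class II chains H2-Aa and H2-Eb1 were at 8681 and 11594 CPM and 5630.3 and 7058 CPM in DC3 cells, and at 11649 and 11829 CPM and 8955 and 9826 CPM in DC2 cells (adjusted p = 0.729 and 0.187). Cd74, the invariant chain, was at 13011 and 19756 CPM and 34794 and 38464 CPM (adjusted p = 0.105). B2m, the light chain of MHC class I, was at 2640.5 and 2531 CPM and 9281 and 6824 CPM (adjusted p = 0.0352, 0.0817 with the block), and it was the 1 called of 19 genes of MHC class I loading (median 0.30). The heavy chain H2-D1 was at 1010.1 and 955 CPM and 1533 and 1738 CPM (adjusted p = 0.0762). Calr, the chaperone calreticulin of the loading complex, had the other direction, at 454 and 368 CPM and 153 and 179 CPM (adjusted p = 0.0532).

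The list of 14 lysosomal proteases and their inhibitors held a called gene in each direction, with a median of -1.38, or -1.19 with genes at 0 in a subset set to their bound. Cst3, the cathepsin inhibitor cystatin C, was at 23164 and 31917 CPM in DC3 cells and 4244 and 3539 CPM in DC2 cells (log2 difference 2.79 ± 0.22, adjusted p = 0.0103), with DC1a libraries at 49915 and 52254 CPM. Ctso was at 19.9 and 27.1 CPM and 117 and 166 CPM (adjusted p = 0.0251, 0.0556 with the block), and Ctss, the protease that cuts the invariant chain, at 827 and 708 CPM and 2171 and 1854 CPM (adjusted p = 0.0709). Of 21 Toll-like receptors and adaptors, Tlr3 was higher in DC3 cells and Cd180 lower (median -0.999). Cd180, a Toll-like receptor homologue that acts with Ly86, was at 62.4 and 70.9 CPM and 426 and 412 CPM (log2 difference -2.69 ± 0.22, adjusted p = 0.0103). Tgfbr1, a receptor for transforming growth factor beta, was at 24.1 and 24.4 CPM and 122 and 149 CPM (adjusted p = 0.0199, 0.0535 with the block), as the 1 called of 11 growth factor receptors (median 0.18). Ptprc, which encodes CD45 and, as a splice form, the stained B220, was at 672 and 747 CPM and 2074 and 2202 CPM (adjusted p = 0.0380, 0.0783 with the block). Of 17 chemokine and egress receptors, Xcr1 and Ccr2 were higher and Ccr7 lower (median -0.14). Of 41 lineage transcription factors, Id2 was higher and Rel, Cebpb and Nr4a1 were lower (median -0.37). Abcg3, a transporter, was at 27.5 and 28.0 CPM and 348 and 284 CPM (adjusted p = 0.0137), 1 of 2 called of 18 lipid handling genes (median -1.10), beside Fabp4.

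Genes were also named by their separation, which is the lower CPM of the higher subset over the higher CPM of the lower subset, each raised to the CPM of 3 counts. The 12 genes of largest separation in each direction, of 77 eligible genes higher and 89 lower in DC3 cells, were taken. On the side of DC3 cells, 7 of the 12 were variable segments of immunoglobulin genes. The other 5 were Gcsam, Kctd10, Gstp2, Pdia5 and Ppp3cc. Gcsam, a signalling adaptor first described in germinal centre B cells, was at 189 and 163 CPM in DC3 cells and 0.0814 and 0.208 CPM in DC2 cells (adjusted p = 0.00292), and it was higher still in DC1a cells, at 268 and 343 CPM. Kctd10 was at 54.7 and 102 CPM and 0.163 and 0 CPM (adjusted p = 0.0260). Pdia5, a disulfide isomerase, had 2 counts in the DC2 libraries and 47.1 and 35.4 CPM in the DC3 libraries, a ratio of counts of 894 (95% counting interval 247 to 7385, adjusted p = 0.0448). Ppp3cc, a catalytic subunit of calcineurin, was at 95.2 and 31.8 CPM and 0 and 0 CPM, at least 457-fold higher in DC3 cells (adjusted p = 0.0212). Gstp2, a glutathione transferase at chr19:4040285-4046023, was at 53.9 and 39.0 CPM and 0 and 0 CPM, at least 334-fold higher (adjusted p = 0.0103), and DC1a and DC1b libraries held 40.3 and 35.5 CPM and 40.8 and 37.1 CPM. Gstp2 has a near-identical copy, Gstp1, and the counting could have split their reads. The DC2 libraries were at or near the floor for all 5 genes. With the block Gcsam and Gstp2 kept the call, and Kctd10, Pdia5 and Ppp3cc lost it (adjusted p = 0.0678, 0.0974 and 0.0556).

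On the side of DC2 cells the 12 were Ms4a6d, Fcgr4, Sash1, Ms4a4a, Ryr3, Fabp4, Abhd6, Mmp12, Dtx1, Apoc2, Adgrl3 and Sirpa. Mmp12, the elastase of macrophages, was at 935 and 844 CPM in the DC2 libraries and 0.683 and 3.64 CPM in the DC3 libraries (log2 difference -8.69 ± 1.02, adjusted p = 0.0245), the highest level of the 12. Fabp4, which binds fatty acids, was at 41.1 and 36.0 CPM and 0.0910 and 0.118 CPM (adjusted p = 0.0103), and Apoc2, a cofactor of lipoprotein lipase, at 28.6 and 28.2 CPM and 0 and 0 CPM, at least 223-fold lower in DC3 cells (adjusted p = 0.0482). Abhd6, a monoacylglycerol lipase, was at 61.6 and 57.6 CPM and 0.228 and 0.157 CPM (adjusted p = 0.0103). Fabp4, Apoc2 and Abhd6 were near the floor in DC3 cells, and Mmp12 was above it there. Sash1, a scaffold protein, was at 63.0 and 54.5 CPM and 0 and 0 CPM, at least 463-fold lower (adjusted p = 0.0165). Adgrl3, an adhesion receptor, was at 165 and 185 CPM and 0.319 and 0.862 CPM (adjusted p = 0.0384). Ryr3, a calcium channel of intracellular stores, was at 344 and 172 CPM and 0.364 and 0.588 CPM (adjusted p = 0.0475). It lies at chr2:112631355-113217096 and overlaps Aven on the other strand, which was called lower as well, and whether strand was used in counting is unknown here. With the block Fabp4 and Abhd6 kept the call, and Mmp12, Apoc2, Sash1, Adgrl3 and Ryr3 lost it (adjusted p = 0.0622, 0.111, 0.0541, 0.0842 and 0.0851). Adgrl3, Sash1, Mmp12 and Apoc2 overlap other annotated genes.

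Among genes of protein synthesis and respiration few passed the test. Of 79 ribosomal protein genes, 76 had a positive log2 difference, 75 had both DC3 libraries above both DC2 libraries, against 24.5% of all genes, and 3 were called (Rpl12, Rpsa and Rpl31), with a median of 0.86. Rpl12 was at 503 and 507 CPM in DC3 cells and 180.4 and 164 CPM in DC2 cells (log2 difference 1.51 ± 0.20, adjusted p = 0.0352), and Rpsa at 1386 and 1418 CPM and 497 and 446 CPM (adjusted p = 0.0333). Rpl31 was at 612 and 574 CPM and 241 and 243 CPM (adjusted p = 0.0286). Ribosomal protein genes have many processed copies, and reads may be shared with them. Of 77 nuclear-encoded subunits of the respiratory chain, 60 had a positive log2 difference and 2 were called (Cox6a2 and Cox7b), with a median of 0.55. In 51 both DC3 libraries were above both DC2 libraries, and in 1 the reverse held, against 24.5% and 21.1% of all genes. Cox7b, a subunit of complex IV, was at 565 and 543 CPM and 238 and 201 CPM (adjusted p = 0.0389). Hspe1, a mitochondrial chaperonin, was the 1 called of 11 heat shock genes, at 211 and 201 CPM and 79.4 and 81.3 CPM (adjusted p = 0.0471). With the block these 5 genes lost the call, with adjusted p = 0.0601 for Rpl12, 0.0501 for Rpsa, 0.0668 for Rpl31, 0.0817 for Cox7b and 0.0964 for Hspe1. None was called by edgeR among 34 interferon-stimulated genes, 27 cell cycle genes, 29 adhesion molecules, 5 Siglecs or 13 mitochondrially encoded mRNAs, whose medians were -0.16, -0.63, -0.37, -1.83 and 0.36.

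Genes known from other cell types are given next, and their levels stand beside all results above. Bulk RNA does not show which cells held this RNA. Immunoglobulin genes took 7.3% of all counts in DC3 pool 1 and 3.95% in DC3 pool 2, against 0.17% and 0.0335% in the DC2 libraries. Of 268 immunoglobulin genes, 103 passed the filter and were tested. More than 3 counts were held by 150 and 115 of the 268 in the DC3 libraries and by 46 and 30 in the DC2 libraries. Members could thus pass the filter through DC3 cells alone, so the shared direction is no separate support. Of the 103, 7 were called, all higher in DC3 cells, against 0.48% of all genes. All 7 were variable segments, which share sequence with each other and are uncertain for that reason. Igkv5-43 was at 547 and 1498 CPM in DC3 cells and 0.366 and 0.260 CPM in DC2 cells (adjusted p = 0.0103). Igkv4-53 was at 290.2 and 875 CPM and 0.163 and 0 CPM, Igkv10-96 at 435 and 288 CPM and 0.244 and 0 CPM, and Igkv1-110 at 1545 and 564 CPM and 1.14 and 0.260 CPM. Igkv4-57-1 was at 210.0 and 1693 CPM and 1.02 and 0.312 CPM. Ighv7-1 was at 155 and 236 CPM and Ighv4-1 at 45.2 and 37.6 CPM in DC3 cells, and both were at 0 in the DC2 libraries, at least 1407-fold and 298-fold higher in DC3 cells. With the block Igkv5-43, Igkv4-53 and Igkv10-96 kept the call, and Igkv1-110, Igkv4-57-1, Ighv7-1 and Ighv4-1 lost it (adjusted p = 0.0556, 0.0923, 0.0978 and 0.114). The most abundant of the 7 segments was Igkv1-110 in DC3 pool 1 and Igkv4-57-1 in DC3 pool 2. After TLI the log2 difference of DC3 minus DC2 cells was negative for Igkv4-53 (-2.62), Igkv4-57-1 (-8.65) and Ighv4-1 (-8.07). It was positive for Igkv5-43, Igkv10-96 and Igkv1-110. None of these segments was called after TLI (adjusted p = 0.309 to 0.971 by edgeR). Ighv7-1 was at 0 CPM in all TLI DC3 and DC2 libraries. The kappa constant gene Igkc was at 36989 and 20193 CPM in DC3 cells and 844 and 41.3 CPM in DC2 cells (adjusted p = 0.122). Without immunoglobulin genes in the fit, 175 genes were called, 162 of them among the 169.

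The 7 plasma cell markers all had a positive log2 difference and 0 were called. Their summed level was 10080.1 and 4608 CPM in the DC3 libraries and 145 and 229.9 CPM in the DC2 libraries, most of it Jchain, the joining chain of secreted antibody, at 9026 and 4187 CPM and 89.4 and 1.82 CPM (adjusted p = 0.124). Mzb1, which aids antibody secretion, was at 638 and 293 CPM and 0.610 and 0 CPM (adjusted p = 0.0570). Of 13 B cell markers 8 had a positive log2 difference and 0 were called. Their summed level was 39044 and 20756 CPM in DC3 and 1211 and 354 CPM in DC2 libraries, most of it Igkc in DC3 cells. Cd79b was at 227 and 60.2 CPM and 0.203 and 0 CPM (adjusted p = 0.0750), and Ms4a1 was at 0 and 0.118 CPM and 8.34 and 0 CPM. Of 9 NK cell markers 8 had a positive log2 difference and 0 were called, with a summed level of 563 and 332 CPM and 107 and 69.0 CPM. The NK receptor gene Ncr1 was at 35.2 and 50.4 CPM in DC3 cells and 0 and 0 CPM in DC2 cells (adjusted p = 0.0976), and Nkg7 at 141 and 120.2 CPM and 0 and 0 CPM (adjusted p = 0.0929). Basophil and mast cell markers were found in the DC3 libraries, at a sum of 1170.2 and 47.7 CPM, against 0.570 and 0.675 CPM in the DC2 libraries, and none of 7 was called. The basophil protease gene Mcpt8 was at 502 and 11.7 CPM and 0.0814 and 0 CPM (adjusted p = 0.0750), and Fcer1a at 30.0 and 0 CPM and 0 and 0 CPM. DC3 pool 1 held most of the basophil signal.

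Of 19 plasmacytoid dendritic cell markers, 4 were called higher in DC3 cells (Mctp2, Cox6a2, Ly6d and Blnk) and 0 lower. Of the 19, 17 had a positive log2 difference and 15 had both DC3 libraries above both DC2 libraries, against 24.5% of all genes. The median was 2.94, or 2.83 with genes at 0 in a subset set to their bound. The summed level was 732 and 439.7 CPM in DC3 and 264 and 241 CPM in DC2 libraries. Ly6d was at 69.5 and 35.7 CPM in DC3 cells and 0 and 0.208 CPM in DC2 cells (adjusted p = 0.0440), against 151 and 254 CPM in DC1b cells. Cox6a2 was at 40.4 and 28.2 CPM and 1.67 and 0.987 CPM (adjusted p = 0.0226), against 1703 and 2520.1 CPM in DC1b cells. Blnk was at 18.3 and 8.26 CPM and 0.651 and 0.156 CPM (adjusted p = 0.0448). Mctp2 was at 12.2 and 11.1 CPM and 0 and 0 CPM, at least 83.8-fold higher in DC3 cells (adjusted p = 0.0103), against 313 and 183 CPM in DC1b cells. Blnk is known from B cells as well. The defining markers Siglech and Tcf4 were at 44.4 and 34.2 CPM and 88.2 and 61.9 CPM in DC3 cells, 2.44 and 25.8 CPM and 39.5 and 41.5 CPM in DC2 cells and 1159.5 and 1858 CPM and 1026 and 523 CPM in DC1b cells, and were not called (adjusted p = 0.493 and 0.300). Ly6d, Cox6a2 and Blnk lost the call with the block (adjusted p = 0.0770, 0.0556 and 0.0851).

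For other cell types no marker was called by edgeR, and some lists were near the floor or varied within a subset. The T cell genes Cd3e and Trac had at most 0.104 CPM in the 4 libraries, and the sum of the T cell list was 88.1 and 60.8 CPM in DC3 and 43.0 and 19.9 CPM in DC2 cells. Neutrophil markers summed to 0.501 and 0.313 CPM in DC3 and 2.28 and 66.0 CPM in DC2 cells, with DC2 pool 2 as the high library, and S100a8 and S100a9 were at most 0.61 CPM in the 4 libraries. Platelet markers summed to at most 0.623 CPM in each DC2 and each DC3 library. Erythroid markers summed to 2292 and 88.4 CPM in the DC2 libraries and 148 and 56.9 CPM in the DC3 libraries, with DC2 pool 1 as the high library. Macrophage markers summed to 43.9 and 60.3 CPM in DC3 and 214 and 367 CPM in DC2 cells. Of 12 tested, 11 had a negative log2 difference and 4 had both DC2 libraries above both DC3 libraries, against 21.1% of all genes. Their median was -2.84, or -2.41 with genes at 0 in a subset set to their bound. Mertk and Vcam1 were at 2.59 CPM or less in all 4 libraries. None of the macrophage, neutrophil, erythroid, T cell, innate lymphoid cell or dendritic cell precursor markers was called by edgeR. The part of these cell types in the differences between DC3 and DC2 cells was not tested.

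**Figure D4:**
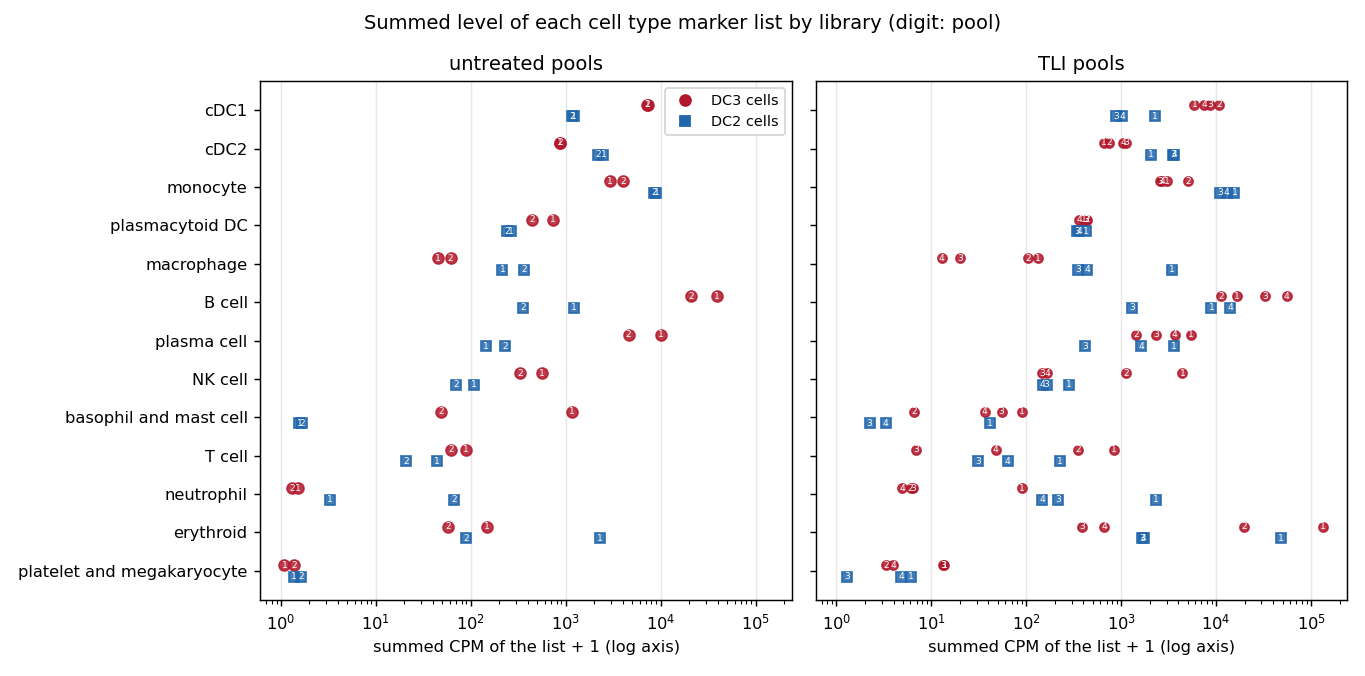
Summed CPM plus 1 of 13 lists of cell type markers on a log axis, in untreated (left) and TLI (right) libraries, with red circles for DC3 and blue squares for DC2 cells and the pool number inside each symbol. In untreated mice the DC3 libraries lie above the DC2 libraries for cDC1, plasmacytoid DC, B cell, plasma cell, NK cell, basophil and T cell markers and below them for cDC2, monocyte, macrophage and neutrophil markers, and in TLI mice pools 1 and 2 of DC3 cells and pool 1 of DC2 cells hold most of the erythroid signal.

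The same contrast was measured in separate mice after TLI. There, 198 of 16400 genes (1.21%) were called between DC3 and DC2 cells, with 70 higher and 128 lower in DC3 cells, in a fit of 15 libraries with a term for batch. Of the 169 genes called in untreated mice, 168 were tested after TLI, 156 had the same sign and 51 were called with the same sign, and 0 were called with the opposite sign. The 51 are 30.2% of the untreated calls and 25.8% of the TLI calls. Over all 15013 genes tested in both with a difference, 61.2% had the same sign. By batch the count was 1 in batch 1 (pools 1 and 2) and 68 in batch 2 (pools 3 and 4). Without TLI DC2 pool 1 the split was 99 higher and 89 lower. Libraries of batch 1 stood apart, with erythroid markers summed at 134296, 19598, 382 and 658 CPM in DC3 pools 1 to 4 and 48203, 1667 and 1719 CPM in DC2 pools 1, 3 and 4, and NK cell markers summed at 4408, 1133, 145 and 164 CPM and 283, 163 and 148 CPM. Naaa was at 757, 1674, 873 and 883 CPM in TLI DC3 pools 1 to 4 and 58.0, 95.2 and 32.1 CPM in TLI DC2 pools (adjusted p = 0.00120 by edgeR). Irf8, which was not called in untreated mice, was at 515, 1123, 1004 and 787 CPM and 74.8, 35.3 and 34.8 CPM (log2 difference 4.25, adjusted p = 0.000806), and the difference from untreated mice was not called (interaction adjusted p = 0.811 by edgeR). The groups did not overlap for either gene. Sirpa was at 0.521, 5.02, 1.12 and 6.24 CPM and 36.7, 9.22 and 309 CPM and was not called (adjusted p = 0.185). Ccl3 was at 682, 62.0, 93.7 and 119 CPM and 753, 959 and 862 CPM (adjusted p = 0.375) with an interaction adjusted p of 0.622, and DC3 pool 1 was near the DC2 libraries. Dtx1 was at 5.40, 5.35, 0.0351 and 0 CPM and 5.57, 0.271 and 3.45 CPM (adjusted p = 0.696). Its DC2 libraries lay under those of untreated mice, and the interaction was not called (adjusted p = 0.670 by edgeR).

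The difference between the TLI and the untreated contrast was tested as an interaction over all 23 libraries, in which 7 of 19597 genes (0.0357%) were called, with 1481 at an unadjusted p under 0.05. Of the genes named above, these were Clec9a, Ms4a6d, Cd180, Gstp2 and Cd79b. Clec9a was at 213, 214, 366 and 319 CPM in TLI DC3 cells and 38.9, 27.2 and 41.2 CPM in TLI DC2 cells, so that DC2 cells held more of it after TLI than in untreated mice (interaction -4.51 ± 0.48 SE on the log2 scale, adjusted p = 0.000416). Ms4a6d was at 18.4, 21.6, 4.99 and 10.1 CPM and 404, 689 and 699 CPM, and was thus detected in all TLI DC3 libraries (adjusted p = 0.00177). Cd180 was at 32.5, 38.3, 44.3 and 44.1 CPM and 54.9, 32.2 and 37.8 CPM, without the difference found in untreated mice (adjusted p = 0.0127). Gstp2 was at 36.1, 37.5, 31.7 and 29.1 CPM and 31.0, 45.8 and 48.4 CPM (adjusted p = 3.85e-07), and Cd79b at 26.0, 21.5, 36.0 and 35.4 CPM and 62.6, 40.3 and 17.4 CPM (adjusted p = 0.0340). The other called genes were Cul4b, a ubiquitin ligase scaffold, and Tada1, a subunit of a histone acetyltransferase complex. With the pool as a block 6 genes were called, 5 of them among the 7, and Cd79b and Tada1 lost the call (adjusted p = 0.167 and 0.0765). Every untreated library was of batch 1, and within batch 1 the interaction called 9 genes, 3 of them among the 7, namely Clec9a, Ms4a6d and Gstp2 (adjusted p = 0.00516, 0.00635 and 0.00516). Cd180 lost the call there (adjusted p = 0.466). Without untreated DC2 pool 2 the count was 12.

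**Figure D5:**
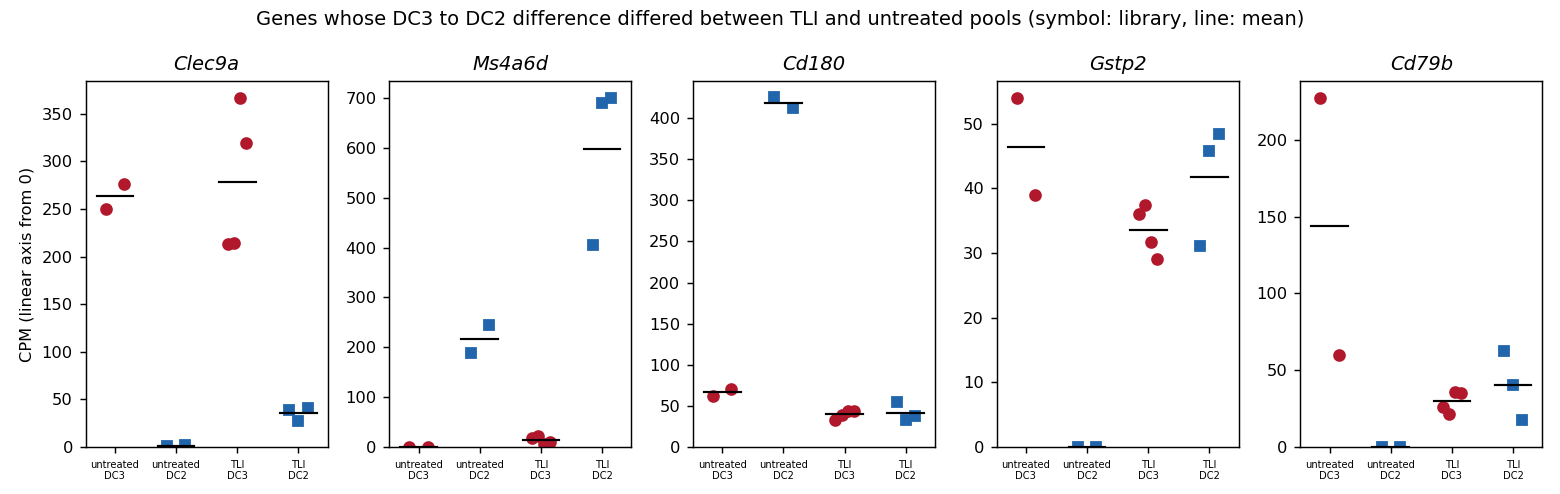
CPM on linear axes from 0 for Clec9a, Ms4a6d, Cd180, Gstp2 and Cd79b in DC3 (red circles) and DC2 (blue squares) cells of untreated and TLI pools, with 1 symbol per library and a line at each group's mean. Gstp2 is at 0 in the untreated DC2 libraries alone, and Cd180 is above 400 CPM in the untreated DC2 libraries alone.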

How the data were processed

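The libraries were made by the authors from sorted cells with a SMARTseq v4 UltraLow kit and a KAPA HyperPlus kit. Trimmomatic, HISAT2 and StringTie on GRCm38 gave the deposited estimated counts, which are whole numbers per gene; whether strand was used in counting is not given in the sources used here. Of 47729 gene identifiers, 47310 matched an annotation table and 419 did not. All scaling to CPM, filters and tests were made for this report in R 4.3.3. edgeR 4.0.16 (quasi-likelihood, TMM, filterByExpr) was run on the 8 untreated libraries with subset as the term, on 15 TLI libraries with batch added, and on all 23 libraries for the interaction, with Benjamini-Hochberg adjustment over all genes tested at 0.05. DESeq2 1.42.0 and limma 3.58.1 served as alternatives. Standard errors of log2 differences were derived for this report, as the absolute log2 difference over the square root of edgeR's quasi-likelihood F. Figures were drawn with matplotlib 3.10.9.

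Subsets with the same pool number came from the same pool of mice by their labels, so the pool was used as a block in an alternative fit; the deviations of same-numbered DC3 and DC2 libraries from their subset means correlated at 0.00689. The members of the 44 gene lists, the naming rule and the choice of this comparison were made with earlier results of these data known. Of 693 list entries 686 were found in the table. Immunoglobulin genes were gathered, and left out in an added fit, after the data were seen. On simulated data of 15987 genes for this comparison, edgeR recovered 0, 5, 16 and 23 of 50 genes changed by a fold of 2, 4, 8 and 16, with 2 false calls, and DESeq2 recovered 3, 24, 30 and 37 with 239 false calls.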

Additional observations from a re-analysis of the deposited data

Results flagged for a closer look

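In 41 groups of 4 TLI DC3 pools, made of the 24 genes named by separation and 17 lists of cell type markers, 3 held a sample whose gap to the nearest other pool passed Dixon's 95% limit for 4 samples, as a share of the range on the log2(CPM + 1) scale. Chance gives such a gap in about 1 of 20 groups of normally spread values. That rate does not hold for Ighv4-1 and Apoc2, whose other pools were all at 0. For Ighv4-1 and for Apoc2 the gap was 1, since only pool 3 held counts, at 0.246 and 0.457 CPM, and for the summed neutrophil markers it was 0.912, with pool 1 at 89.4 CPM and the others at 3.93 to 5.38 CPM.

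Differences between the TLI and the untreated contrast of DC3 and DC2 cells passed edgeR's test of the interaction for 7 genes, given here on the log2 scale as TLI minus untreated. The value was -4.51 for Clec9a, 2.71 for Cd180, 9.84 for Ms4a6d, -13.5 for Gstp2, -11.7 for Cul4b, -10.5 for Cd79b and 8.38 for Tada1. Ms4a6d, Gstp2 and Cul4b were at 0 in both untreated libraries of a subset, so that their values are no measure of size. Cul4b was at 7.92 and 30.1 CPM in untreated DC3 cells and at 0 in untreated DC2 cells, and at 10.6 to 18.9 CPM in TLI DC2 cells. Tada1 was at 0.637 and 0.353 CPM in untreated DC3 cells and at 17.7, 70.2, 71.4 and 70.6 CPM in TLI DC3 pools.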

How the results depend on the processing

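The 169 calls in untreated mice became 2063 with DESeq2, 473 with no filter on low counts, 424 with at least 10 counts in every library, 417 with limma-voom, 69 with the pool as a replicate block and 0 in a fit of the 4 libraries, with 23 to 41 when a library was left out. Leaving out DC2 pool 1 or 2 shifted the median log2 difference of all genes from 0 to 0.17 and 0.15. Other size factors (173), all 23 libraries (164) and a fit without immunoglobulin genes (175) kept the count within 1.5 times, though 81 of the 169 genes were called over all 23 libraries. The 198 calls after TLI became 1281 with DESeq2, 340 with no filter, 119 with no batch term, 33 with the 7 libraries alone, 1 in batch 1 and 68 in batch 2, and 134 to 207 when a library was left out, against 154 with the block. The 7 interaction calls became 679 with DESeq2, 20 with no filter, 2 with at least 10 counts and 1 with the 11 libraries alone, and 5 to 12 when an untreated library was left out, against 6 with the block. Of 122 genes, the block took the call from 38 and gave it to Il1b. Signs turned for genes that were not called, namely Irf4 with limma-voom (0.000443, and -1.14 to 1.03 when a library was left out), Zbtb46 with limma-voom (0.78, and -1.11 to 2.53), Ly75 (-0.089 to 0.81), Flt3 (-0.35 to 0.33) and Cd8a (-0.37 to 6.30). The causes were not tested. Of 490 alternative values of list medians, 470 kept their sign. With 2 pools a subset, edgeR's test missed most of the changed genes at every fold from 2 to 16 in simulated data.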
